A study of Mus musculus with 6 samples.

Results

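The genes described here are 40 cell division and DNA replication genes measured in osteoblasts (OBs) of ectopic bone that BMP-2 had induced. They were taken by their symbols from a fixed list, and all 40 were found among the 23284 genes listed for every sample. By their known roles, 26 act in mitosis and 14 in DNA replication. The members were chosen by their measured FPKM on day 10 and day 14, since the list was drawn up after earlier results of these same samples were known. The difference between the days is therefore a description of these 6 samples, and no test of it is offered for the list.

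OBs came from male *Col2.3*-ECFP mice aged 12 to 16 weeks, in which a fragment of the type I collagen promoter drives the cyan fluorescent protein ECFP in OBs. Collagen sponges carrying 2.5 μg of the bone-inducing protein BMP-2 were implanted, and ECFP+ cells were sorted by flow cytometry on day 10 (n = 3) and day 14 (n = 3), with CD45+ cells and dead cells gated out. Both groups therefore share the transgene, the sponge and the BMP-2, and no group without BMP-2 was analysed here. Bone went through 1 round of collagenase on day 10 and 2 rounds on day 14, and digestion and day cannot be told apart. The sample titles place all 3 later samples on day 14, whereas their free-text descriptions read day 14, 15 and 16 for replicates 1, 2 and 3. The sample titles call the samples biological replicates without naming the mice or implants behind each.

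A dividing cell first copies its DNA in S phase and then separates the copies in mitosis, and the genes for these steps are largely silent in resting cells. Replication genes are transcribed from late G1 into S phase, mainly under the E2F factors. Mitotic genes are transcribed later, in G2 and mitosis, through promoters that often hold a CHR element (cell cycle genes homology region), bound by the MuvB complexes, together with CCAAT boxes, bound by NF-Y. OBs divide as precursors and leave the cell cycle as they mature into matrix-forming cells.

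Promoter sequences are shown first, since many of them hold letters by which genes of the 2 groups are known to be timed. The search used no FPKM value, although the members were chosen on FPKM, and no test of the shares was made. RefSeq windows of 300 bases, from 250 bases before to 50 bases after the start of transcription on build GRCm38.p6, were matched to 22 of the 26 mitotic and 12 of the 14 replication genes. They were searched on both strands for CHR letters (TTTGAA or else TTTAAA), for the CCAAT box by its own letters, and for E2F letters (TTCCCGC or else TTCGCGC or else TTGCCGC or else TTGGCGC). On the other strand TTGGCGC reads as GCGCCAA and overlaps the CCAAT box where a T follows it, and E2F letters can overlap each other. The CHR letters were found in 19 of 22 mitotic genes (86.4%) and 4 of 12 replication genes (33.3%), against 30.6% of all 27025 genes with a window. For the E2F letters the order was the opposite, with 3 of 22 mitotic genes (13.6%), 8 of 12 replication genes (66.7%) and 10.9% of all genes. CCAAT stood in 81.8% of the mitotic and 66.7% of the replication windows, against 41.1% of all windows, and CHR and CCAAT letters together in 77.3%, 25% and 13.4%. Among the genes with a window, *Bub1*, *Nusap1* and *Mad2l1* held no CHR letters, and *Mcm2*, *Pcna*, *Tyms* and *Ccne1* no E2F letters. A match of letters is a description of the window and does not show that a factor binds there.

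Stretches of 170 bases ending just before the RefSeq start of transcription are printed for 4 mitotic genes that hold CHR letters and 3 replication genes that hold E2F letters, so that both kinds of promoter can be seen. The mitotic examples lie at chr4:118437344-118437513 on the minus strand (*Cdc20*), chr11:99024190-99024359 on the minus strand (*Top2a*), chr19:37376212-37376381 on the plus strand (*Kif11*) and chr7:135716380-135716549 on the minus strand (*Mki67*). The stretches are upstream of the gene, and that of *Cdc20* reaches 9 bases into the gene as GENCODE vM21 annotates it. All are written from 5′ to 3′ on the strand of the gene, and capitals mark CHR or CCAAT letters on either strand. The *Mki67* window also holds E2F letters, which are left in lower case here.
Cdc20: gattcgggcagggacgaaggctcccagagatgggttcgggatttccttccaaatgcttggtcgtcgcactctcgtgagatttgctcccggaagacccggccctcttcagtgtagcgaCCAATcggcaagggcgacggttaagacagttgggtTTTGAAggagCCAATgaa
Top2a: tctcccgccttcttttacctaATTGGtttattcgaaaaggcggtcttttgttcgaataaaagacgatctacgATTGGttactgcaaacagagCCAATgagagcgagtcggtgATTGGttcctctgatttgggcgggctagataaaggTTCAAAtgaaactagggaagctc
Kif11: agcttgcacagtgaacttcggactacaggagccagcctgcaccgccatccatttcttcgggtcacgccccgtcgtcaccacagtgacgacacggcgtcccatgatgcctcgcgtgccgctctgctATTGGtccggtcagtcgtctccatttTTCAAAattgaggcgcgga
Mki67: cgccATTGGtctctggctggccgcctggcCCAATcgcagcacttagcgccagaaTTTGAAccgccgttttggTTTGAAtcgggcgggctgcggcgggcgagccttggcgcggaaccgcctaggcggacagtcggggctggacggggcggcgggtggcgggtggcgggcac

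The replication examples lie at chr1:128359706-128359875 on the minus strand (*Mcm6*), chr8:75109339-75109508 on the plus strand (*Mcm5*) and chr7:102441525-102441694 on the plus strand (*Rrm1*). Here capitals mark E2F or CCAAT letters on either strand, and a longer capital run is a place where E2F letters of the 2 strands overlap. The *Mcm5* window also holds CHR letters, which lie outside the stretch printed.
Mcm6: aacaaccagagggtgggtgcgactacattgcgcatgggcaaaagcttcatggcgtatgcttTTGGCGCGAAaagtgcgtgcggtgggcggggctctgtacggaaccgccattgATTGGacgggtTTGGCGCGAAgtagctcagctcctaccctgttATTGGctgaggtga
Mcm5: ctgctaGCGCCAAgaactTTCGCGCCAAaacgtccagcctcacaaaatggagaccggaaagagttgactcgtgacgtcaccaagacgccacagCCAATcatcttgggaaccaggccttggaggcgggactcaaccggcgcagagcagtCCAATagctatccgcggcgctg
Rrm1: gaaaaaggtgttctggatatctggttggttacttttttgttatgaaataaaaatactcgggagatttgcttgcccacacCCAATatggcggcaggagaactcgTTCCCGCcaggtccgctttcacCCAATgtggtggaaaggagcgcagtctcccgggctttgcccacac

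The same search was made in 2 further lists of genes of the same processes that are not among the 40. Of the other mitotic genes with a window, 34 of 51 held CHR letters (66.7%) and 29.4% held E2F letters. Of the other replication genes with a window, 11 of 41 held CHR letters (26.8%) and 65.9% held E2F letters. Within these 2 further lists, the 45 genes with CHR letters had a median log2 difference between the days of −0.37, and the 47 without had −0.38, which are nearly equal.

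**Figure D1:**
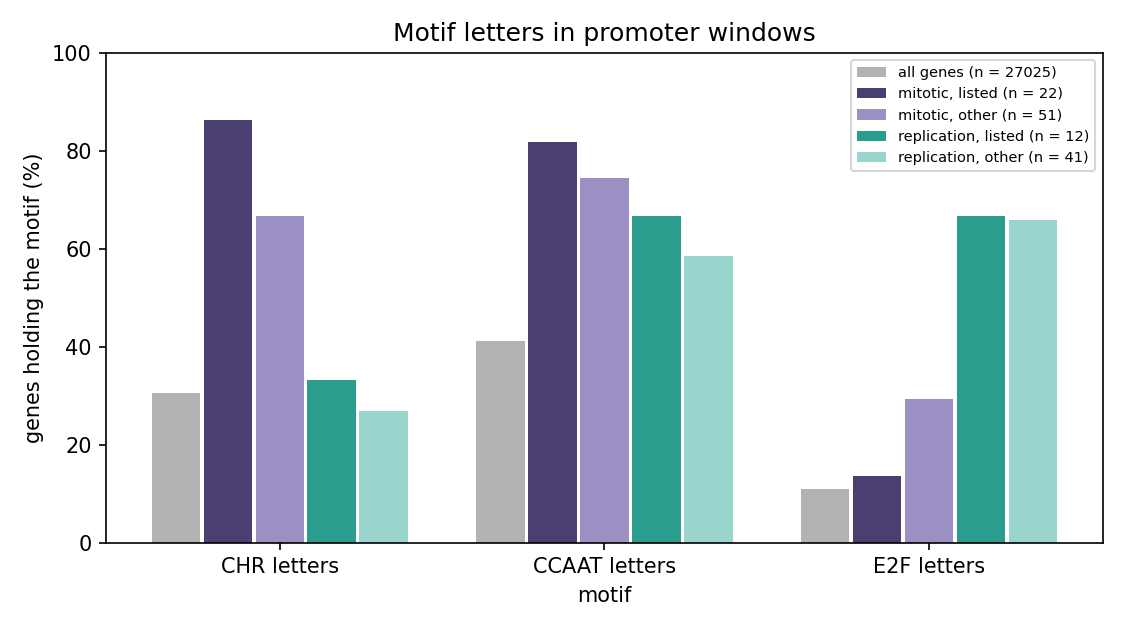
Share of genes (%, from 0) whose promoter window holds the CHR, CCAAT or E2F letters on either strand, for all 27025 genes with a window, the mitotic and replication genes described here, and the other genes of each process. CHR letters are most frequent in the mitotic genes (86.4%) and E2F letters in the replication genes (66.7%).

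RNA was measured by sequencing, and the values are FPKM, fragments per kilobase of transcript scaled to the mapped reads of the sample, which divides by gene length and so allows levels of different genes to be compared. The number of mapped reads, estimated from the smallest steps between low FPKM values, ran from 4522872 to 7745772 per sample. At this depth, 3 reads on 1000 bases are worth 0.387 to 0.663 FPKM, a floor that covers counting error only. All 40 genes were above 0 in every sample, and 38 of them had at least 10 estimated reads in every sample. In 1 sample, day 10 replicate 3, the cell division genes stood apart, as given below. Among markers of OBs, the 8 listed genes summed to 39482 to 74012 FPKM on day 10 and 26250 to 52794 FPKM on day 14, and none was at 0 in any sample. Their mean log2(FPKM + 0.1), in which abundant genes weigh less, was 9.49, 9.59 and 8.61 on day 10. On day 14 it was 7.64, 9.06 and 6.85, with overlap and a lower mean (7.85 against 9.23). The part of this difference in the results was not tested.

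The 40 genes were expressed at low to middle levels in both groups. Their mean FPKM over the 6 samples ran from 0.565 for *Cdc6* to 20.9 for *Rrm2*, ranks 12883 and 2651 of the 23284 listed genes, and 36 of the 40 were at or above 1 FPKM. The median was 3.53 FPKM for the mitotic and 4.46 FPKM for the replication genes, against 1.76 FPKM for the 19526 genes with a mean above 0.1 FPKM, which are called the tested genes here. The members with the highest mean and the largest difference in each group lie, in GENCODE vM21 coordinates of mm10, on chromosome 2 from 164769898 to 164778822 (*Ube2c*), chromosome 2 from 127801122 to 127831865 (*Bub1*), chromosome 12 from 24708241 to 24714146 (*Rrm2*) and chromosome 6 from 88883474 to 88898780 (*Mcm2*). In bulk samples, fewer dividing cells and less RNA of these genes in each dividing cell cannot be told apart.

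In these samples the mitotic genes were lower on day 14 than on day 10, and the replication genes less evenly so. The log2 fold change (day 14 minus day 10, from limma on log2(FPKM + 0.1)) was below 0 for 26 of the 26 mitotic genes and 11 of the 14 replication genes (12 under upper-quartile or TPM scaling), where 53.5% of all tested genes were below 0. Its median was −0.76 for the mitotic genes, with a range from −1.34 (*Bub1*) to −0.13 (*Kif23*), and −0.33 for the replication genes, with a range from −0.76 (*Mcm2*) to 0.38 (*Rrm2*). The median over all tested genes was −0.04. Every day 14 sample was below every day 10 sample for 16 of the 26 mitotic genes and 1 of the 14 replication genes, beside 6.67% of all tested genes, and none of the 40 showed the opposite (7.59% of all tested genes). A fold difference over 2 was seen for 5 mitotic genes and no replication gene, beside 8.39% of all tested genes lower by that much.

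No difference of a single gene passed adjustment over all tested genes. With limma and Benjamini-Hochberg adjustment, the adjusted p was under 0.05 for 0 of the 40, beside 0% of all tested genes lower and 0.0154% higher on day 14. The unadjusted p was under 0.05 for 13 mitotic genes and 1 replication gene, all lower on day 14, beside 4.4% of all tested genes lower and 5.6% higher on day 14. Because the members were chosen with this difference in view, nothing is read from these counts.

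**Figure D2:**
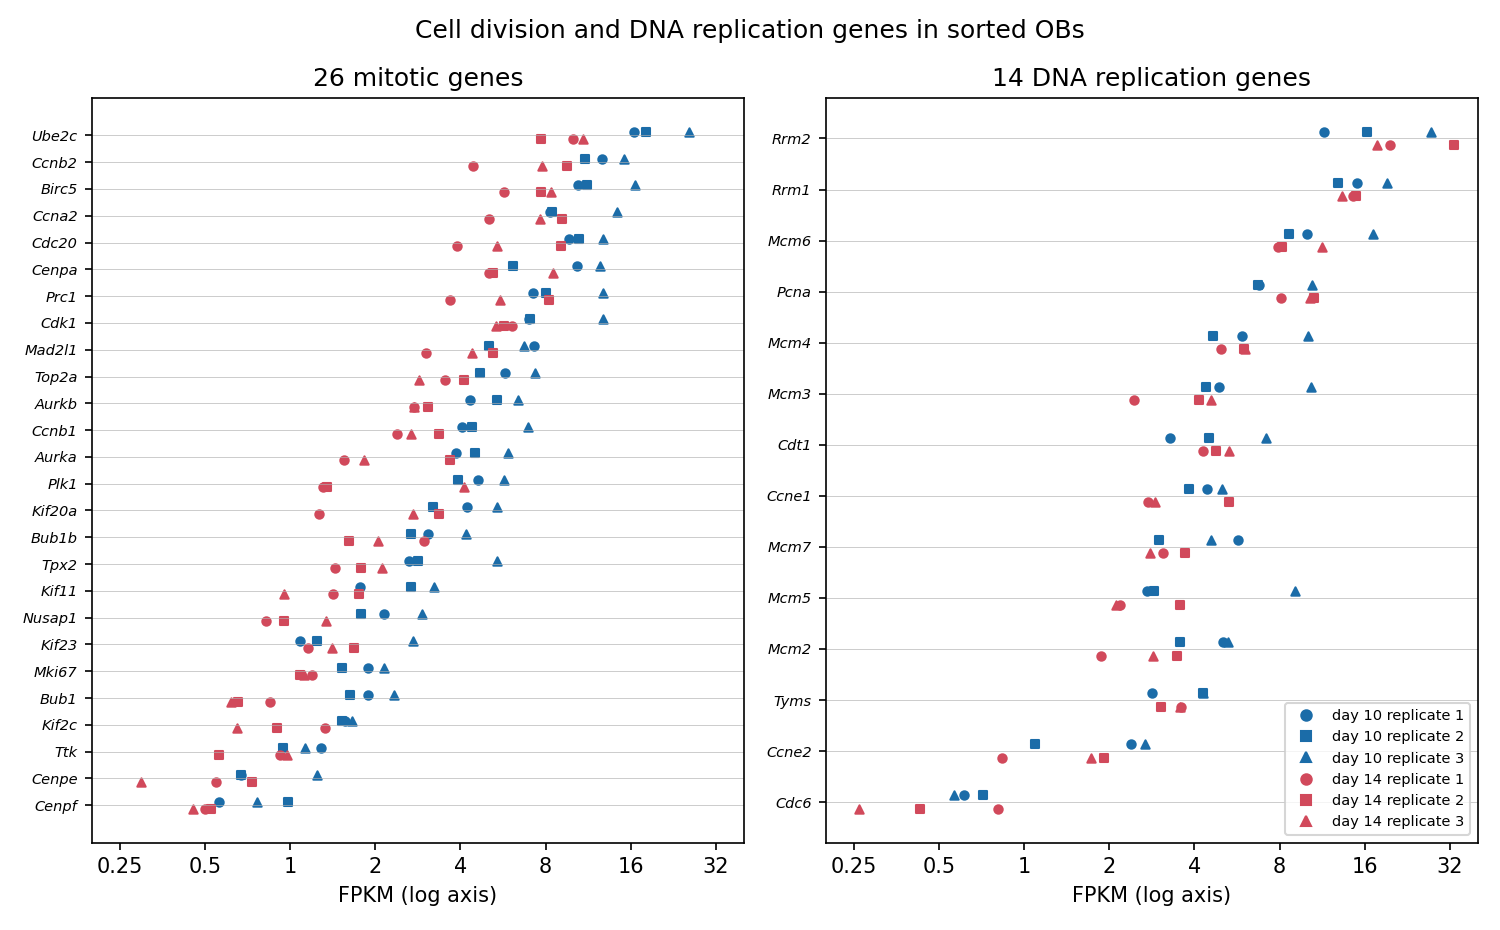
FPKM (log axis) of each of the 26 mitotic genes (left) and 14 DNA replication genes (right) in the 3 day 10 samples (blue) and the 3 day 14 samples (red), ordered by mean level, with 1 point per sample. Blue points lie to the right of the red ones without overlap in 16 mitotic genes, and in *Mcm2* among the replication genes.

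Day 10 replicate 3 was the highest of the 6 samples for 31 of the 40 genes, 23 of them mitotic, whereas it was the highest for 9.06% of all tested genes. Its summed OB markers, 39482 FPKM, were the lowest of the day 10 samples. Without it, the median log2 fold change was −0.58 for the mitotic and −0.09 for the replication genes. The count of mitotic genes with an unadjusted p under 0.05 then went from 13 to 4, and that of mitotic genes lower by more than 2-fold from 5 to 2. The count of mitotic genes without overlap stayed at 16 of 26. It could not change, since this library was not the lowest day 10 sample in any mitotic gene. The sign turned for *Kif23* (0.25), *Mcm4* (0.10) and *Rrm1* (0.03).

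Proliferation is most often followed by Ki-67, the product of *Mki67*, a protein coating mitotic chromosomes. *Mki67* was at 1.88, 1.53 and 2.15 FPKM in the day 10 samples and 1.20, 1.08 and 1.12 FPKM in the day 14 samples. The groups did not overlap, and the log2 fold change was −0.65 (SE 0.33). *Top2a*, the topoisomerase that untangles replicated DNA, was at 5.74, 4.68 and 7.33 FPKM on day 10 and 3.53, 4.10 and 2.85 FPKM on day 14. It too was lower in every day 14 sample, with a log2 fold change of −0.73 (SE 0.25).

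Entry into mitosis is driven by cyclin B bound to the kinase CDK1, after cyclin A has acted in S phase and G2. *Ccnb1* was at 4.06, 4.39 and 6.94 FPKM on day 10 and 2.39, 3.36 and 2.68 FPKM on day 14, without overlap (log2 fold change −0.82, SE 0.28). *Ccnb2* was higher in level, at 12.7, 11.0 and 15.1 FPKM on day 10 and 4.43, 9.48 and 7.75 FPKM on day 14. Day 14 replicate 1 was the lowest and the groups did not overlap (log2 fold change −0.89, SE 0.29). *Cdk1* was at 7.00, 7.05 and 12.8 FPKM on day 10 and 6.10, 5.72 and 5.33 FPKM on day 14. Its day 14 values lay close together under the lowest day 10 value, and the log2 fold change was −0.58 (SE 0.26). *Ccna2*, the gene for cyclin A2, was at 8.28, 8.39 and 14.3 FPKM on day 10 and 5.06, 9.14 and 7.62 FPKM on day 14. Here the groups overlapped, since day 14 replicate 2 was above 2 of the day 10 samples (log2 fold change −0.49, SE 0.29). Its exons overlap those of *Exosc9* on the other strand, and reads could not be assigned by strand.

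Exit from mitosis depends on the anaphase-promoting complex, a ubiquitin ligase that CDC20 activates and UBE2C supplies with ubiquitin. *Ube2c* had the highest mean level of the 26 mitotic genes, at 16.4, 18.1 and 25.6 FPKM on day 10 and 9.98, 7.69 and 10.8 FPKM on day 14. The groups were separated by 5.61 FPKM, more than in any other member, and the log2 fold change was −1.06 (SE 0.22). *Cdc20* was at 9.71, 10.5 and 12.8 FPKM on day 10 and 3.88, 9.09 and 5.38 FPKM on day 14. Day 14 replicate 2 came within 0.622 FPKM of the lowest day 10 sample, and the log2 fold change was −0.91 (SE 0.30). Exons of *Ube2c* and *Cdc20* overlap those of *Tnnc2* and *Elovl1*. The day 10 and day 14 levels of *Elovl1* were 48.9 to 53.6 and 40.8 to 63.5 FPKM, while *Tnnc2* was listed at 0 in 5 of the 6 samples.

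The mitotic kinases set up the spindle and guard its attachment to chromosomes. *Aurka*, needed for spindle poles, was at 3.85, 4.50 and 5.90 FPKM on day 10 and 1.55, 3.67 and 1.83 FPKM on day 14. The highest day 14 sample was just under the lowest day 10 sample, and the log2 fold change was −1.06 (SE 0.36). *Aurkb*, the kinase of the chromosomal passenger complex, was at 4.32, 5.40 and 6.38 FPKM on day 10 and 2.75, 3.08 and 2.75 FPKM on day 14. Its day 14 values were tightly grouped and did not overlap those of day 10 (log2 fold change −0.87, SE 0.24). *Birc5*, the gene for survivin in the same complex, was at 10.4, 11.2 and 16.6 FPKM on day 10 and 5.71, 7.72 and 8.33 FPKM on day 14. This was again without overlap (log2 fold change −0.79, SE 0.24).

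*Plk1*, a kinase acting from mitotic entry to cytokinesis, was at 4.60, 3.91 and 5.72 FPKM on day 10 and 1.31, 1.35 and 4.11 FPKM on day 14. Day 14 replicate 3 lay within the day 10 range while the other two day 14 samples were far below it, and the log2 fold change was −1.22 with an SE of 0.44. *Ttk*, the spindle checkpoint kinase also called MPS1, was at 1.29, 0.947 and 1.13 FPKM on day 10 and 0.921, 0.562 and 0.975 FPKM on day 14. The groups overlapped slightly, and with as few as 8.78 estimated reads in a sample its log2 fold change of −0.43 was about as large as its SE of 0.41.

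The spindle checkpoint holds anaphase back until all chromosomes are attached. *Bub1*, a checkpoint kinase, was at 1.88, 1.63 and 2.33 FPKM on day 10 and 0.847, 0.653 and 0.617 FPKM on day 14. With a log2 fold change of −1.34 (SE 0.36), a 2.53-fold lower level, it had the largest difference of the 40 genes at the pseudocount of 0.1. *Bub1* had as few as 12.3 estimated reads in a sample. With a pseudocount of 1 its log2 fold change was −0.78, smaller than that of *Ube2c* (−0.99). *Bub1b*, the gene for BUBR1, was at 3.06, 2.68 and 4.19 FPKM on day 10 and 2.97, 1.61 and 2.04 FPKM on day 14, and its groups overlapped through day 14 replicate 1 (log2 fold change −0.58, SE 0.32). *Mad2l1*, the gene for MAD2, was at 7.26, 5.03 and 6.68 FPKM on day 10 and 3.03, 5.22 and 4.38 FPKM on day 14. It overlapped narrowly, with day 14 replicate 2 above day 10 replicate 2 (log2 fold change −0.59, SE 0.27).

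Centromere proteins mark the site where the kinetochore forms. *Cenpa*, the histone H3 variant of centromeres, was at 10.3, 6.11 and 12.4 FPKM on day 10 and 5.03, 5.22 and 8.52 FPKM on day 14. Day 14 replicate 3 lay above day 10 replicate 2, so the groups overlapped (log2 fold change −0.59, SE 0.31). *Cenpe*, a kinetochore motor, was at 0.671, 0.669 and 1.25 FPKM on day 10 and 0.546, 0.731 and 0.298 FPKM on day 14. The groups overlapped and the SE (0.51) was nearly as large as the log2 fold change (−0.63). *Cenpf*, a kinetochore protein, was at 0.561, 0.982 and 0.764 FPKM on day 10 and 0.501, 0.525 and 0.454 FPKM on day 14. The days did not overlap but lay only 0.0359 FPKM apart, and the log2 fold change was −0.52 (SE 0.46).

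Kinesins move chromosomes and spindle microtubules. *Kif11*, the motor that pushes the spindle poles apart, was at 1.77, 2.68 and 3.23 FPKM on day 10 and 1.42, 1.75 and 0.951 FPKM on day 14. The groups met within 0.016 FPKM without overlap (log2 fold change −0.85, SE 0.37). *Kif2c*, which depolymerises microtubules at the kinetochore, was at 1.56, 1.52 and 1.66 FPKM on day 10 and 1.33, 0.899 and 0.647 FPKM on day 14. Here day 10 was the tighter group and lay above every day 14 sample (log2 fold change −0.72, SE 0.38). *Kif20a*, a cytokinesis kinesin, was at 4.22, 3.21 and 5.37 FPKM on day 10 and 1.27, 3.36 and 2.71 FPKM on day 14, with day 14 replicate 2 inside the day 10 range (log2 fold change −0.85, SE 0.39). Exons of *Kif20a* overlap those of *Cdc23* on the other strand. *Cdc23* was at 14.8, 16.6 and 14.8 FPKM on day 10 and 12.1, 12.7 and 10.7 FPKM on day 14. The part of shared reads in the *Kif20a* values was not tested. *Kif23*, the kinesin of the central spindle, was the mitotic gene that differed least. Its levels were 1.08, 1.24 and 2.71 FPKM on day 10 and 1.16, 1.68 and 1.41 FPKM on day 14, and all 3 day 14 samples lay within the day 10 range (log2 fold change −0.13, SE 0.42).

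Further members bind the microtubules of the spindle and its midzone. *Tpx2*, the activator of Aurora A on the spindle, was at 2.63, 2.84 and 5.39 FPKM on day 10 and 1.44, 1.78 and 2.11 FPKM on day 14. The groups did not overlap (log2 fold change −0.93, SE 0.35). *Nusap1*, a spindle protein, was at 2.15, 1.78 and 2.92 FPKM on day 10 and 0.824, 0.952 and 1.34 FPKM on day 14. It was lower by 1.06 on the log2 scale (SE 0.36), again without overlap. *Prc1*, which bundles microtubules of the midzone, was at 7.20, 8.03 and 12.8 FPKM on day 10 and 3.67, 8.23 and 5.50 FPKM on day 14. Its groups overlapped through day 14 replicate 2 (log2 fold change −0.71, SE 0.33).

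**Figure D3:**
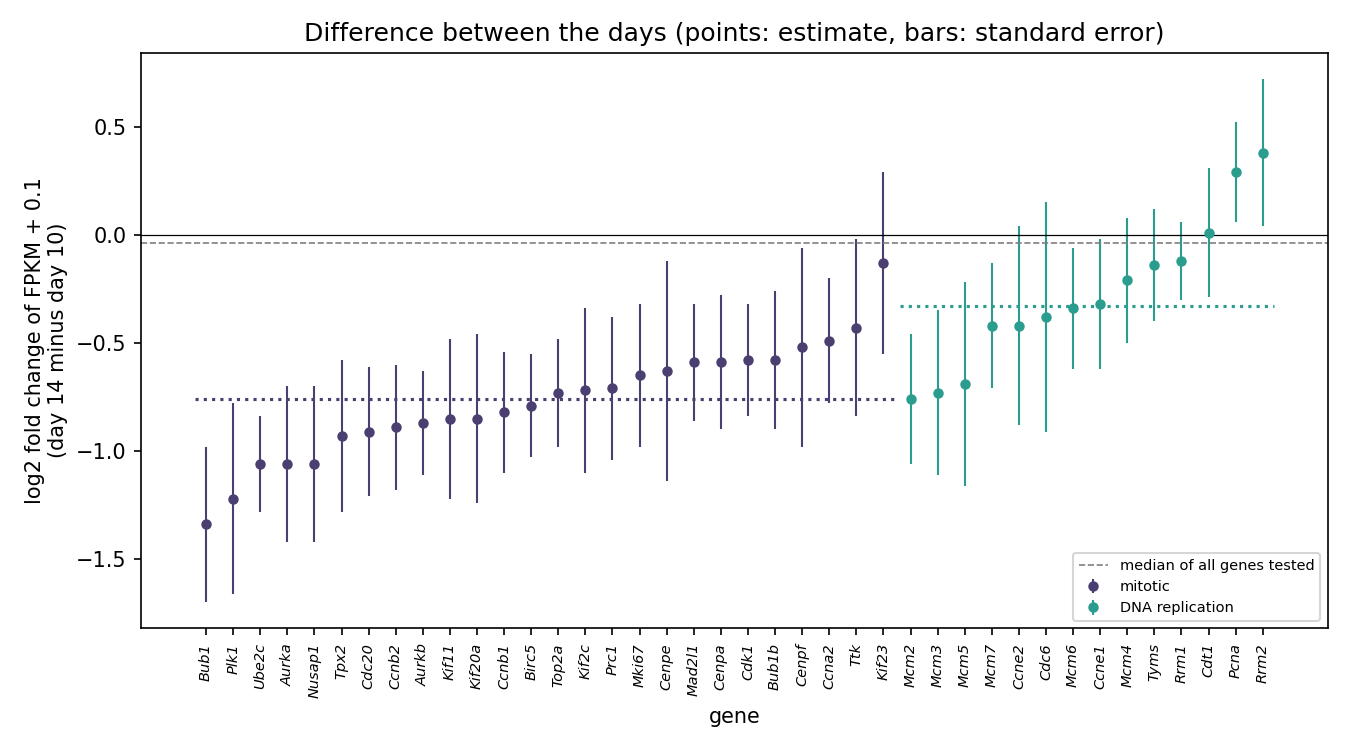
Log2 fold change of FPKM + 0.1 (day 14 minus day 10) of each gene, as the limma estimate (points) with its standard error (bars). Dotted lines mark the median of the mitotic (−0.76) and replication genes (−0.33) and the dashed line that of all tested genes (−0.04). The 26 mitotic genes lie below 0, and *Cdt1*, *Pcna* and *Rrm2* at or above it, of which *Cdt1* was at −0.01 and −0.02 under upper-quartile and TPM scaling.

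Among the replication genes, *Mcm2* to *Mcm7* encode the 6 subunits of the helicase ring that opens DNA at the fork. All 6 had a log2 fold change below 0, with a median of −0.55, and 1 of them was without overlap. *Mcm2* was at 5.03, 3.56 and 5.27 FPKM on day 10 and 1.87, 3.46 and 2.86 FPKM on day 14. The lowest day 10 sample was 0.0983 FPKM above the highest day 14 sample (log2 fold change −0.76, SE 0.30). *Mcm3* was at 4.88, 4.41 and 10.3 FPKM on day 10 and 2.45, 4.15 and 4.59 FPKM on day 14. It overlapped narrowly, with day 10 replicate 3 far above the rest (log2 fold change −0.73, SE 0.38). *Mcm5* was at 2.73, 2.88 and 9.06 FPKM on day 10 and 2.18, 3.56 and 2.11 FPKM on day 14. Without day 10 replicate 3 its log2 fold change went from −0.69 to −0.14, so most of that difference rested on this sample.

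*Mcm4* was at 5.91, 4.67 and 10.1 FPKM on day 10 and 4.98, 5.98 and 6.02 FPKM on day 14, with all 3 day 14 values inside the day 10 range (log2 fold change −0.21, SE 0.29). *Mcm6* was at 10.0, 8.63 and 17.1 FPKM on day 10 and 7.87, 8.13 and 11.3 FPKM on day 14. Its groups overlapped too (log2 fold change −0.34, SE 0.28), and without day 10 replicate 3 the log2 fold change was −0.05. *Mcm7* was at 5.69, 2.99 and 4.57 FPKM on day 10 and 3.10, 3.70 and 2.78 FPKM on day 14, also with overlap (log2 fold change −0.42, SE 0.29). *Mcm7* shares exon sequence with *Cops6* and *Ap4m1* on the other strand, and *Cops6* was at 68.6 to 89.3 FPKM. *Mcm6* was the highest subunit per length in all 6 samples, and the highest subunit was 2.35 to 5.37 times the lowest within a sample, though the helicase holds its subunits in equal number.

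Licensing factors load the helicase on origins before S phase. *Cdt1* was at 3.29, 4.49 and 7.18 FPKM on day 10 and 4.30, 4.76 and 5.28 FPKM on day 14. The day 14 values lay inside the day 10 range, and the log2 fold change of 0.01 (SE 0.30) became −0.01 and −0.02 under upper-quartile and TPM scaling. *Cdc6* was the lowest of the 40 genes, at 0.613, 0.714 and 0.564 FPKM on day 10 and 0.809, 0.429 and 0.262 FPKM on day 14. It had 8.11 estimated reads in its lowest sample, and its log2 fold change of −0.38 was smaller than its SE of 0.53. How much of this SE came from counting error was not tested.

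Cyclin E starts S phase together with the kinase CDK2. *Ccne1* was at 4.43, 3.84 and 4.99 FPKM on day 10 and 2.75, 5.30 and 2.91 FPKM on day 14. Day 14 replicate 2 was the highest of all 6 samples and the other two day 14 samples the lowest (log2 fold change −0.32, SE 0.30). *Ccne2* was at 2.39, 1.09 and 2.67 FPKM on day 10 and 0.837, 1.91 and 1.72 FPKM on day 14. The groups overlapped, and the log2 fold change of −0.42 was smaller than its SE of 0.46. Exons of *Ccne2* overlap those of *Ints8* on the other strand, which was at 5.42 to 9.17 FPKM.

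Nucleotide supply and the sliding clamp serve the fork itself. *Rrm2*, the regulated subunit of ribonucleotide reductase, was at 11.5, 16.3 and 27.5 FPKM on day 10 and 19.6, 33.0 and 17.6 FPKM on day 14. It was the highest of the 40 genes and varied by more than 2-fold within day 10, and the groups overlapped widely (log2 fold change 0.38, SE 0.34). *Rrm1*, the large subunit of the same enzyme, was at 15.0, 12.9 and 19.1 FPKM on day 10 and 14.5, 14.9 and 13.3 FPKM on day 14. All 3 day 14 values lay within the day 10 range (log2 fold change −0.12, SE 0.18).

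*Pcna*, the clamp that holds DNA polymerase on its template, was at 6.79, 6.73 and 10.4 FPKM on day 10 and 8.10, 10.6 and 10.2 FPKM on day 14. It was higher in all 3 day 14 samples than in 2 of the day 10 samples and overlapped with day 10 replicate 3 (log2 fold change 0.29, SE 0.23). *Tyms*, thymidylate synthase, was at 2.84, 4.30 and 4.29 FPKM on day 10 and 3.59, 3.05 and 3.55 FPKM on day 14, with its day 14 values inside the day 10 range (log2 fold change −0.14, SE 0.26). Pseudogenes are named after *Pcna*, *Tyms*, *Ccnb1* and *Ccnb2*, and how reads shared with them were assigned is not given in the sources used here.

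Set against each other within each sample, the mitotic genes were lower relative to the replication genes on day 14. The mean log2(FPKM + 0.1) of the 26 mitotic genes was 1.93, 1.89 and 2.43 in the day 10 samples and 1.15, 1.44 and 1.34 in the day 14 samples. The mean over the 14 replication genes was 2.23, 2.10 and 2.81 on day 10 and 1.93, 2.30 and 2.08 on day 14. The mitotic level did not overlap between the days and the replication level did. The difference of the 2 means was −0.30, −0.21 and −0.38 on day 10 and −0.78, −0.85 and −0.74 on day 14, which is −0.30 ± 0.09 (SD, n = 3) against −0.79 ± 0.06 (SD, n = 3). In summed FPKM, the mitotic genes were 1.66, 1.68 and 1.46 times the replication genes on day 10 and 0.947, 0.959 and 1.09 times on day 14. These measures cancel what scales both groups alike in a sample. Day 10 replicate 3 was the day 10 sample nearest to day 14 in the difference (−0.38) and in the ratio (1.46).

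The separation was not seen with every choice of lists. Against *Mcm2* to *Mcm7* alone, the difference of the means was −0.51, −0.21 and −0.68 on day 10 and −0.61, −0.78 and −0.76 on day 14, and the days overlapped. Among genes of the same processes outside the 40, the difference of 60 mitotic and 55 replication genes was −0.38, −0.30 and −0.36 on day 10 and −0.42, −0.33 and −0.48 on day 14. Those days overlapped as well, with −0.35 ± 0.04 against −0.41 ± 0.08 (SD, n = 3 each). With the lists exchanged singly, the 26 mitotic genes minus the 55 other replication genes gave 0.53, 0.65 and 0.60 on day 10 and −0.05, 0.28 and 0.24 on day 14, without overlap. The 60 other mitotic genes minus the 14 replication genes gave −1.21, −1.16 and −1.34 on day 10 and −1.15, −1.46 and −1.46 on day 14, with overlap.

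**Figure D4:**
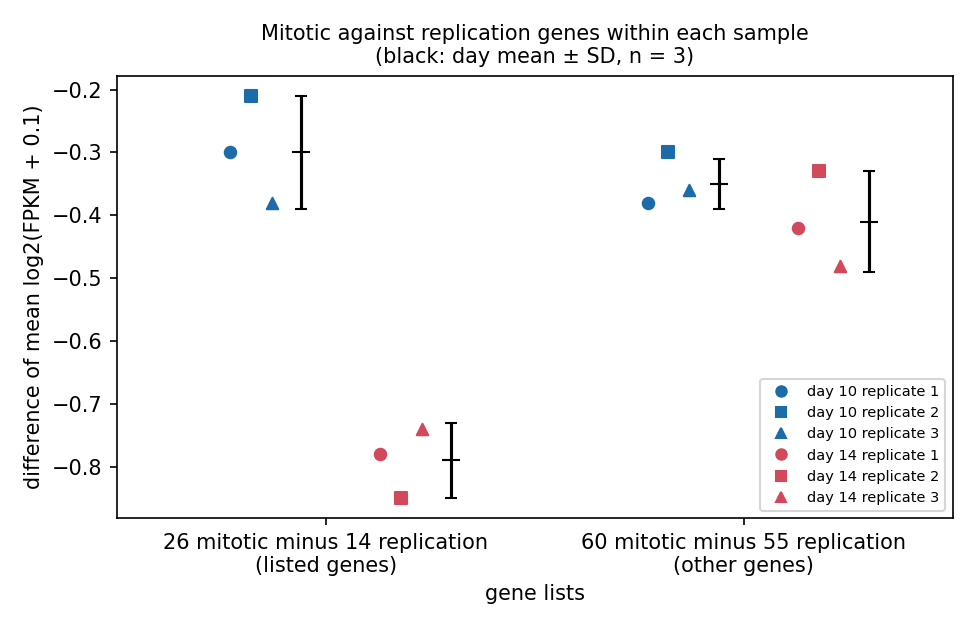
Difference of mean log2(FPKM + 0.1) between mitotic and replication genes within each sample, for the 26 and 14 genes described here (left) and for 60 and 55 other genes of the same processes (right). Points are samples, black bars the day mean ± SD (n = 3). The days lie apart on the left (−0.30 and −0.79) and overlap on the right (−0.35 and −0.41).

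The other mitotic genes, which include further kinesins, condensins and kinetochore proteins, had a log2 fold change below 0 in 50 of 60, with a median of −0.45. Their mean log2(FPKM + 0.1) was 1.02, 0.94 and 1.47 on day 10 and 0.78, 0.84 and 0.62 on day 14, without overlap. Every day 14 sample was below every day 10 sample in 15 of them (25%) and above in 1, beside 6.67% and 7.59% of all tested genes. The unadjusted p from limma was under 0.05 for 6 (10%), all lower on day 14, beside 4.4% of all tested genes, with 0 under 0.05 after adjustment over all tested genes. Day 10 replicate 3 was the highest sample for 34 of the 60, beside 9.06% of all tested genes. Leaving out each sample in turn, 43 to 54 of the 60 were below 0, and their median was −0.57 to −0.26. *Kif22*, a chromosome-bound kinesin, was at 4.73, 6.17 and 6.01 FPKM on day 10 and 2.47, 2.09 and 3.20 FPKM on day 14. The groups did not overlap, but the adjusted p from limma for its log2 fold change of −1.10 was 0.298. *Cdca8*, borealin of the passenger complex of *Aurkb* and *Birc5*, was at 5.47, 5.25 and 10.1 FPKM on day 10 and 3.08, 3.33 and 2.99 FPKM on day 14 (log2 fold change −1.06, adjusted p = 0.319 from limma). In the opposite direction, *Zwint*, a kinetochore protein, was at 5.95, 7.58 and 6.86 FPKM on day 10 and 7.71, 9.21 and 11.5 FPKM on day 14. Its groups did not overlap either (log2 fold change 0.46, adjusted p = 0.519 from limma), while those of *Fam83d*, a spindle protein, did (log2 fold change 0.44 with a limma adjusted p of 0.697).

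The other replication genes, among them polymerases, origin and fork proteins and histone chaperones, had a log2 fold change below 0 in 44 of 55, with a median of −0.28. Their mean log2(FPKM + 0.1) was 1.40, 1.24 and 1.83 on day 10 and 1.20, 1.17 and 1.10 on day 14. On this measure the days did not overlap, unlike those of the 14 replication genes described here. The summed FPKM of the other replication genes did overlap, at 219, 198 and 284 on day 10 and 193, 207 and 207 on day 14. Of these genes, 11 (20%) were lower and 1 (1.82%) higher on day 14 without overlap, beside 6.67% and 7.59% of all tested genes. With an unadjusted p under 0.05 from limma, 6 (10.9%) were lower and 1 (1.82%) higher, beside 4.4% and 5.6% of all tested genes, and 0 passed adjustment over all tested genes. Day 10 replicate 3 was the highest sample for 34 of the 55, beside 9.06% of all tested genes. Leaving out each sample in turn, 37 to 47 of the 55 were below 0, and their median was −0.45 to −0.22. Among the genes shown, *Asf1b*, a histone chaperone, was at 4.40, 3.40 and 4.98 FPKM on day 10 and 2.2, 1.94 and 2.34 FPKM on day 14, without overlap (log2 fold change −0.94, adjusted p = 0.325 from limma). *Slbp*, which binds the stem-loop of histone mRNA, was at 14.5, 10.3 and 14.6 FPKM on day 10 and 21.4, 22.3 and 16.4 FPKM on day 14. It was higher in every day 14 sample, with a log2 fold change of 0.61 (adjusted p = 0.384 from limma), whereas *Orc6*, an origin recognition subunit, overlapped (log2 fold change 0.34 with a limma adjusted p of 0.744).

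The transcriptional regulators of the cycle, 19 genes for E2F, DP and RB family proteins, the MuvB core, B-Myb and FOXM1, had a log2 fold change below 0 in 14, with a median of −0.18. Every day 14 sample was below every day 10 sample in 3 of them (15.8%) and above in 0, beside 6.67% and 7.59% of all tested genes. Their mean log2(FPKM + 0.1) was 1.51, 1.52 and 1.51 on day 10 and 1.37, 1.28 and 1.22 on day 14, without overlap. Their summed FPKM overlapped, at 79.0, 81.6 and 76.1 on day 10 and 72.7, 72.9 and 87.5 on day 14. The mean log2(FPKM + 0.1) over all tested genes was 1.09, 1.07 and 1.04 on day 10 and 1.35, 0.77 and 0.87 on day 14. None of the 19 regulators had an adjusted or an unadjusted p under 0.05 from limma. *Rbl1*, the gene for p107, was at 2.42, 2.39 and 3.37 FPKM on day 10 and 1.99, 1.70 and 1.02 FPKM on day 14, without overlap (log2 fold change −0.79 with a limma adjusted p of 0.5). *Rb1* was at 3.95 to 6.83 FPKM on day 10 and 3.11 to 4.39 FPKM on day 14, and its groups overlapped (log2 fold change −0.55, adjusted p = 0.551 from limma). *E2f1* was at 3.71, 4.92 and 7.75 FPKM on day 10 and 7.38, 4.34 and 9.61 FPKM on day 14, and *E2f6* at 2.72 to 5.89 and 4.23 to 7.46 FPKM. Both overlapped between the days, with log2 fold changes of 0.37 (adjusted p = 0.804 from limma) and 0.44 (adjusted p = 0.728 from limma).

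The genes also varied together within the days. Over the 6 samples, the mean correlation between pairs of mitotic genes on the log2 scale was 0.69, that between pairs of replication genes 0.39 and that across the groups 0.44. With the day means removed these values were 0.33, 0.40 and 0.39, so that what was left within the days was as large across as within the groups. The values for the other mitotic and other replication genes were 0.20 and 0.19, and 0.01 for all tested genes. The points of each correlation are the same 6 libraries, and day 10 replicate 3 is high in most of these genes.

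Genes listed as markers of other cells also differed between the libraries, and their part in the results was not tested. Bulk levels do not show which cells expressed these genes. Of 12 chondrocyte markers, 2 were at 0 in at least 1 sample (*Matn1* and *Lect1*), and their sum was 778 to 1624 FPKM on day 10, 2428 FPKM in day 14 replicate 2, and 233 and 174 FPKM in day 14 replicates 1 and 3. The 12 myeloid markers summed to 35.4 to 149 FPKM on day 10 and 12 to 618 FPKM on day 14, and 5 of them, among them *Emr1* and *Aif1*, were at 0 in at least 1 sample. The 7 neutrophil markers found in the files summed to 9.49 to 260 FPKM and 1.39 to 53.1 FPKM, with 5 at 0 in at least 1 sample, *S100a8* and *S100a9* included. The sums of these lists differed from sample to sample more than the cell division genes did, and the days overlapped in each.

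The 7 erythroid markers summed to 26.4 to 106 FPKM on day 10 and 19.5 to 110 FPKM on day 14, with 4 of them, *Slc4a1* and *Klf1* included, at 0 in at least 1 sample. The 6 lymphoid markers were near 0 throughout, at 1.94 to 2.84 FPKM and 1.15 to 4.74 FPKM in sum, and 5 of them, *Cd3e* and *Cd3g* included, were at 0 in at least 1 sample. The 8 endothelial markers summed to 2.05 to 4.02 FPKM and 3.89 to 8.57 FPKM, with *Emcn* at 0 in at least 1 sample. Sums of the 7 osteoclast markers were 447 to 490 FPKM on day 10 and 628 to 676 FPKM on day 14, without overlap, with *Dcstamp* at 0 in at least 1 sample. Their mean log2(FPKM + 0.1), in which abundant genes weigh less, was 1.81 to 2.56 on day 10 and 1.25 to 2.30 on day 14, with overlap and a lower mean on day 14. Fibroblast and pericyte markers, 8 genes of which none was at 0, summed to 3430 to 4484 FPKM and 3804 to 5780 FPKM. Their mean log2(FPKM + 0.1) was 5.68, 5.88 and 5.99 on day 10 and 6.19, 6.27 and 6.26 on day 14, higher in every day 14 sample while the mitotic genes were lower.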

How the data were processed

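RNA-seq of sorted ECFP+ OBs was analysed for 3 samples of day 10 and 3 of day 14. Libraries were made with a SMART-Seq v4 kit, which does not mark strand, and 75-base single-end reads were sequenced. The authors mapped reads to mm10 with TopHat2 2.0.13, Bowtie2 2.2.3 and SAMtools 0.1.19 and deposited the FPKM that Cufflinks 2.2.1 gave for each gene, 1 file per sample. The annotation they used is not given in the sources used here. Gene symbols turned into dates in 1 file (25, none of a member) were restored by position.

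Values were taken as log2(FPKM + 0.1), so fold changes of low genes are understated. The day was fitted with limma 3.58.1 (mean-variance trend) in R 4.3.3 over the 19526 genes with a mean above 0.1 FPKM, with Benjamini-Hochberg adjustment over all of them. The fit was tested on simulated data. Days are called overlapping unless every sample of day 14 lies on the same side of every sample of day 10. Mapped reads were estimated from steps of low FPKM values (fragment length 220 bases, 75.3% to 80.1% of them within 0.1 of a whole read). Estimated mapped reads were 4899569, 5546390 and 7745772 on day 10 and 4522872, 5889359 and 7050843 on day 14, and reads per gene are approximate.

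The members and lists were chosen with earlier results of these data known. By rule, values per sample are given for the 10 mitotic and 8 replication genes with the highest mean, all members whose days do not overlap, and *Mki67*, *Top2a*, *Ccne1*, *Ccne2*, *Cdc6* and *Cdt1*. These are 31 genes, and the other 9 members were added so that all are shown. From the other lists, up to 2 genes a list and direction with the smallest p and a mean of at least 1 FPKM are named. A gene of the other replication list that this rule also takes, lower on day 14, is not reported here. The overlapping genes and levels of *Exosc9*, *Tnnc2*, *Elovl1*, *Cdc23*, *Cops6*, *Ap4m1* and *Ints8* were looked up after the members were fixed. For 10 members an exon overlaps another gene in GENCODE vM21, and their values are uncertain. They are *Top2a*, *Ccna2*, *Ube2c*, *Cdc20*, *Plk1*, *Kif20a*, *Nusap1*, *Prc1*, *Mcm7* and *Ccne2*. Alternatives were another pseudocount, filter, scaling or variance model, a replicate block, the ratio of day means, and leaving out each sample.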

Additional observations from a re-analysis of the deposited data

How the results depend on the processing

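The mitotic median (−0.89 to −0.58) and the replication median (−0.43 to −0.09) stayed below 0 under all alternatives run, and the lowest and highest of each came from leaving out a sample. Leaving out each sample in turn, mitotic genes with an unadjusted p under 0.05 numbered 4 to 15 (13 with all samples, 4 without day 10 replicate 3), mitotic genes over 2-fold lower 2 to 8 (5 with all samples, 2 without day 10 replicate 3 and without day 14 replicate 1, 8 without day 10 replicate 1), replication genes with an unadjusted p under 0.05 numbered 0 to 2 (2 without replicate 2 of either day, 0 without any of the other samples), and replication genes without overlap 1 to 5 (5 without day 10 replicate 2, 3 without day 14 replicate 2 or 3, 2 without replicate 1 of either day). In the same way, other mitotic genes without overlap numbered 16 to 25 (24 without day 10 replicate 1, 23 and 25 without day 14 replicates 1 and 2), other replication genes without overlap 12 to 22 (22 without day 10 replicate 2, 19 without day 14 replicate 1) and with an unadjusted p under 0.05 3 to 7 (3 without day 10 replicate 1 or 3), and cycle regulators with such a p 0 to 1 (1 without day 10 replicate 3 or day 14 replicate 1), with a median of −0.27 to −0.19. Fewer samples make groups without overlap more frequent by construction. Across all genes, 3 to 76 had an adjusted p under 0.05 from limma (76 without day 14 replicate 2), and none of the 40 members did in any of these fits.

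The log2 fold changes of *Mki67*, *Bub1*, *Cenpf* and *Nusap1* were −0.42, −0.78, −0.24 and −0.68 with a pseudocount of 1. With a pseudocount of 1, 0 mitotic genes were over 2-fold lower, the mitotic minus replication difference between the days was −0.37, and the cycle regulators' median was −0.12. With a mean FPKM above 1, that median was −0.09 and the other mitotic minus other replication difference −0.13. Cycle regulators with an unadjusted p under 0.05 numbered 1 with a pseudocount of 0.01, a mean FPKM above 1, TPM scaling, no mean-variance trend, and the replicate block, and 0 replication genes had such a p without the trend. The mitotic minus replication difference was −0.54 to −0.37 under all alternatives. The sign of *Cdt1* (0.01) turned to −0.01 with upper-quartile scaling, −0.02 with TPM scaling, −0.06 as the ratio of day means, and −0.25, −0.03 and −0.07 without day 10 replicate 1, day 10 replicate 2 and day 14 replicate 3. Without day 10 replicate 3 it turned for *Kif23* (0.25), *Mcm4* (0.10) and *Rrm1* (0.03). The causes were not tested.

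Across genes, the deviations from the day means correlated between samples of equal number with r = 0.058, −0.006 and 0.089, so the replicate numbers were not taken to pair the samples. With the replicate block, 2 genes in all had an adjusted p under 0.05, 0 of them members, 14 mitotic genes had an unadjusted p under 0.05, and the mitotic median was −0.76. *Cdc6* (8.11) and *Ttk* (8.78) had the fewest estimated reads of the members in their lowest sample.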
